A study of Mus musculus with 6 samples.

Results

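The collagen gene family was described in mouse hearts that expressed fatty acid synthase (FASN), the enzyme that makes palmitate, from a transgene. Members were all genes whose symbol in the probe annotation is Col, a number, a and a number. This gave 42 genes of the 18193 genes with a probe set of their own, namely 11 fibrillar, 6 basement membrane and 25 other collagens. Each gene was read from its brightest probe set that carries a single symbol, and the 42 genes had 82 such probe sets in all. The study used 6 Affymetrix expression arrays of total heart RNA in 3 groups of 2. A line with high and a line with low cardiac FASN carried the transgene driven by the alpha-MHC promoter, active in heart muscle cells, and the controls were B6 mice of matched age. All mice were male and of strain C57BL/6J, and ages were not given. Each FASN level is a single transgenic line, so the level of FASN and the line cannot be told apart. The tissue label reads transgenic heart for all 6 arrays, controls included, so groups were taken from the titles. Whether the arrays of 1 group are different hearts is not stated, so p-values reflect only how far these arrays spread, which may be technical. The 2 control arrays served both comparisons.

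Collagens are secreted proteins whose chains wind into a triple helix. Fibrillar collagens, chiefly types I and III in the heart, assemble into the fibres that bear tension between heart muscle cells, while type IV forms the sheet-like network of the basement membrane around muscle cells and capillaries. Type VI forms beaded filaments near the cell surface, and the FACIT collagens attach to the surface of fibres. Fibroblasts are the main source of fibrillar collagen in the heart, and vessel wall cells and muscle cells add basement membrane collagen.

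The stretches of DNA before the annotated starts of 4 members that changed are shown to give the sequence context of genes with different patterns across the lines. Col1a2 and Col3a1 are fibrillar genes that were higher in both lines, Col4a5 had the largest difference between the lines among the members called there, and Col8a1 was called higher in the low FASN line and not in the high FASN line. The sequences are RefSeq's for build GRCm38.p6, written 5′ to 3′ on the strand of the gene, and lie at chr6:4505368-4505617 on the plus strand (Col1a2), chr1:45311288-45311537 on the plus strand (Col3a1), chrX:141475169-141475369 on the plus strand (Col4a5) and chr16:57754738-57754987 on the minus strand (Col8a1). Those of Col1a2, Col3a1 and Col8a1 are the 250 bases that end just before the start. That of Col4a5 was kept to 201 bases outside the annotated gene and ends 49 bases short of the start its window was built on, since the gene's outermost annotated start lies there. Capitals mark matches, on either strand, to CCAAT, to GGGCGG (a GC box) and to TATAAA.
Col1a2: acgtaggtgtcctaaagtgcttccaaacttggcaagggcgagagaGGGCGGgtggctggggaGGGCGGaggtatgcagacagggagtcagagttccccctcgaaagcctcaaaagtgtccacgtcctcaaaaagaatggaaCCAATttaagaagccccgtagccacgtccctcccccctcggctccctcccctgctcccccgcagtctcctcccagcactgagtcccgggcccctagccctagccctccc
Col3a1: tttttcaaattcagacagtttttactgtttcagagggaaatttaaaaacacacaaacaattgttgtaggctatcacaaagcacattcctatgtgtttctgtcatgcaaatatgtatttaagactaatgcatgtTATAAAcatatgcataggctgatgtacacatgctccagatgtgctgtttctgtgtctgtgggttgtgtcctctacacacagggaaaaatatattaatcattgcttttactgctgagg
Col4a5: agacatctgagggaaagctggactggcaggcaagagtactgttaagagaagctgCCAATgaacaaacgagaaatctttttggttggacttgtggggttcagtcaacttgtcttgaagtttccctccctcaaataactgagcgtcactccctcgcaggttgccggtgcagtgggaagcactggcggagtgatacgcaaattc
Col8a1: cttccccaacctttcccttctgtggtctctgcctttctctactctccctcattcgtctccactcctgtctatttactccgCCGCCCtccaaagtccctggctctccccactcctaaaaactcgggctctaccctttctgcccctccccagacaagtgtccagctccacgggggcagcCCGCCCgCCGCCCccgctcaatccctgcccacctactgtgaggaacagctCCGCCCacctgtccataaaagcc
RefSeq windows were matched by symbol for 33 of the 42 members, and for 13 of the 17 members called higher in at least 1 line. Those of Col1a1, Col5a2, Col12a1 and Col14a1 were not matched. In the 250 bases before the start, CCAAT was found in 12 of the 33 member windows (36.4%) and in 33.8% of all 32851 mouse windows. Members had 1 window each, while all windows were not limited to 1 per symbol or to genes on the array. The shares are therefore of unlike sets. GGGCGG was found in 20 member windows (60.6%) and in 32.7% of all windows, and TATAAA in 5 (15.2%) and in 12.4%. Col4a5 is among the 20, although its shortened sequence shows no GGGCGG. Its match reaches into the 49 bases before the start that are not shown. In the 4 sequences shown no match overlaps a match to another motif, and a match describes the letters only. Col4a1 and Col4a2 run in opposite directions from starts 21 bases apart.

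Signals are linear, in arbitrary units, and were analysed as log2(signal + 16), a scale that understates the change of dim genes. The trimmed mean signal was 300.002 on every array, and arrays of 1 group correlated at 0.987 to 0.990 against 0.969 to 0.977 between groups. Fasn itself read 2268 and 2104 in the high FASN line, 462 and 481 in the low FASN line, and 213 and 187 in the controls. All 10 heart muscle markers passed the filter on brightness, with summed signals of 255930 to 284440 in the high FASN line, 208010 to 212180 in the low FASN line and 222260 to 229000 in the controls. Some array measures also moved with the groups. The ratio of 3′ to 5′ actin signal was 2.40 to 2.52 in the high FASN line, 2.31 to 2.32 in the low FASN line and 2.62 to 2.71 in the controls, and the 18S RNA signal was 24919 to 27390, 12019 to 12352 and 22879 to 23712. The 18 hybridization control probe sets differed by a median of -0.19 between the low FASN line and the controls and of 0.077 between the high FASN line and the controls. Their part in the collagen differences was not tested.

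Most of the tested collagen genes rose in each transgenic line against the controls, and more were called in the low FASN line, where more of all probe sets were called too. A probe set was tested where its mean over the 6 arrays reached the median of all probe sets, which is a log2 value of 5.98 or a signal of 47.0, and 24 of the 42 members passed (7 fibrillar, 5 basement membrane and 12 other). In the high FASN line 13 of the 24 rose and 0 fell at an adjusted p below 0.05 (limma with Benjamini-Hochberg adjustment over 22519 probe sets), against 8.18% of all tested probe sets that rose and 6.18% that fell. In the low FASN line 17 of the 24 rose and 0 fell, against 13.5% and 10.8% of all. At an unadjusted limma p below 0.05 the counts were 13 higher and 0 lower in the high FASN line (16.7% and 12.1% of all tested probe sets) and 18 higher and 0 lower in the low FASN line (20.1% and 16.3%). The median difference of the 24 was 0.43 in the high FASN line and 0.77 in the low FASN line on the log2 scale, beside medians of 0.037 and 0.018 over all tested probe sets. Over the alternative settings these medians ran from 0.31 (pseudocount of 64) to 0.64 (stricter filter) and from 0.44 (no filter) to 0.86 (stricter filter). Without 1 control array the count in the high FASN line was 10, and without low FASN array 1 or control array 2 the count in the low FASN line was 15.

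Without the filter all 42 members could be counted. Then 12 rose and 0 fell in the high FASN line (2.68% and 2.2% of 45037 probe sets), and 17 rose and 0 fell in the low FASN line (5.22% and 4.25%). The median over the 42 was 0.35 and 0.44, beside 0.028 and 0.0047 over all probe sets. Of the 42, 25 had both high FASN arrays above both control arrays and 6 had both below them (25.5% and 20.3% of all probe sets). In the low FASN line 21 lay above and 5 below (26.5% and 24.3%).

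The 13 members that rose in the high FASN line also rose in the low FASN line, and 4 more (Col8a1, Col12a1, Col15a1 and Col18a1) were called in the low FASN line alone. By class, 5 of 7 tested fibrillar genes rose in each line, with median differences of 0.80 in the high FASN line and 0.93 in the low FASN line. Of 5 tested basement membrane genes 4 rose in each line, with medians of 0.61 and 0.78. Of the 12 other collagens 4 rose in the high FASN line and 8 in the low FASN line, with medians of 0.30 and 0.59. The plot of single arrays shows these genes in their classes.

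**Figure D1:**
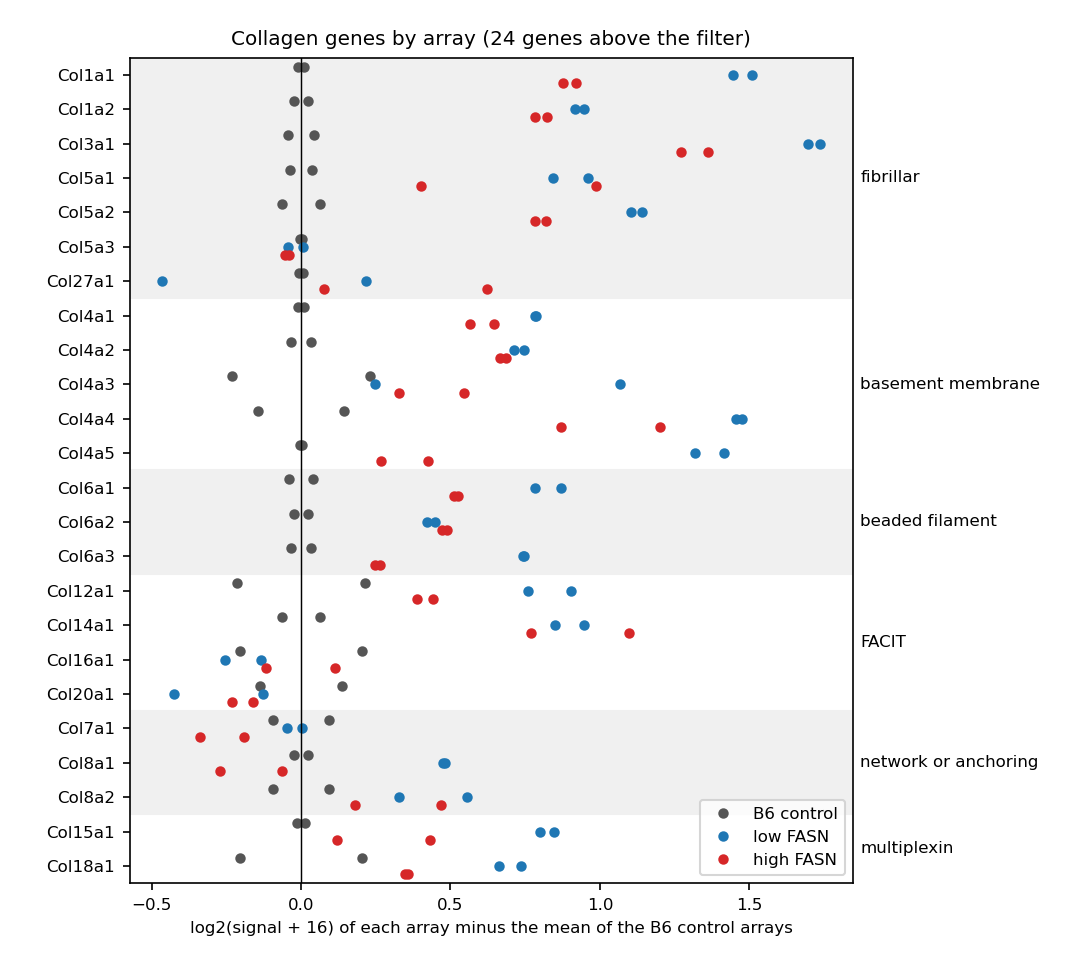
Each point is 1 array of 1 collagen gene, plotted as its log2(signal + 16) minus the mean of the 2 B6 control arrays, for the 24 genes above the filter, grouped by class. The points of both lines lie to the right of the controls for Col1a1, Col1a2, Col3a1, Col5a2 and for Col4a1, Col4a2, Col4a4 and Col4a5, and near them for Col5a3.

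Among the chosen probe sets of fibrillar genes, that of type III collagen showed the largest rise in both lines. Col3a1, the single chain of type III collagen, which gives the heart's fine and compliant fibres, had signals of 10461 and 9809 in the high FASN line, 13174 and 13571 in the low FASN line, and 3941 and 4179 in the controls. The 3 groups did not overlap, with the low FASN line highest. Col3a1 rose by 1.32 ± 0.054 (SE) in the high FASN line (adjusted p = 7.43e-07) and by 1.72 in the low FASN line (adjusted p = 1.39e-07). The difference between the lines was -0.40 (adjusted p = 0.00139), and with no intensity trend in the variance model that p was 0.0581.

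The chains of type I collagen, the stiff main fibre of the heart, both rose. Col1a1, which encodes the more abundant chain of the type I molecule, had signals of 491 and 507 in the high FASN line, 772 and 737 in the low FASN line, and 259 and 263 in the controls. The groups were again apart, with the low FASN line highest. Col1a1 rose by 0.90 ± 0.090 in the high FASN line (adjusted p = 0.000249) and by 1.48 in the low FASN line (adjusted p = 8.63e-06), and differed by -0.58 between the lines (adjusted p = 0.00257). Col1a2, which encodes the partner chain, had signals of 6717 and 6903 in the high FASN line, 7374 and 7526 in the low FASN line, and 3836 and 3964 in the controls. Both lines lay well above the controls, and the low FASN line was slightly above the high FASN line. Col1a2 rose by 0.80 ± 0.049 in the high FASN line (adjusted p = 1.07e-05) and by 0.93 in the low FASN line (adjusted p = 3.79e-06). Between the lines it differed by -0.13, which did not pass (adjusted p = 0.0986), but was -0.21 and -0.20 with quantile normalization and cyclic loess and then passed (adjusted p = 0.0117 and 0.0187).

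Type V collagen is a minor fibrillar collagen that sits in the core of type I fibres and limits their width. Col5a2 had signals of 1476 and 1439 in the high FASN line, 1798 and 1848 in the low FASN line, and 868 and 791 in the controls, with no overlap between groups. It rose by 0.80 ± 0.069 in the high FASN line (adjusted p = 9.79e-05) and by 1.12 in the low FASN line (adjusted p = 9.1e-06), with -0.32 between the lines (adjusted p = 0.0118). That last call was lost without low FASN array 1 or 2 (adjusted p = 0.0695 and 0.0983) and with no intensity trend (0.0858). Col5a1 had signals of 818 and 1235 in the high FASN line, 1117 and 1213 in the low FASN line, and 599.5 and 632 in the controls. Its high FASN arrays were far apart and spanned those of the low FASN line, and both lines lay above the controls. Col5a1 rose by 0.69 ± 0.15 in the high FASN line (adjusted p = 0.0165) and by 0.90 in the low FASN line (adjusted p = 0.00273). The high FASN call was lost without control array 1 or 2 (adjusted p = 0.097 and 0.076), without the filter (0.0508) and with no intensity trend (0.115). Between the lines Col5a1 differed by -0.21 (adjusted p = 0.394), and without high FASN array 2 by -0.50 (adjusted p = 0.00607).

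The remaining tested fibrillar genes did not pass. Col5a3, a chain of a rarer form of type V collagen, had signals of 124 and 122 in the high FASN line, 128 and 123 in the low FASN line, and 127 and 128 in the controls. Its arrays lay side by side, and the 95% interval of the high FASN difference ran from -0.41 to 0.32. Col27a1, a fibrillar collagen best known from cartilage, read 146 and 221, 95.7 and 163, and 137 and 139 in the same order of groups, with differences of 0.35 and -0.12 from the controls. Both high FASN arrays of Col27a1 lay above the controls, far apart from each other, and the low FASN arrays lay on either side of the controls. A second tested probe set of Col27a1 gave 0.0067 and 0.42 from the controls. Between the lines it gave -0.41, where the brighter one gave 0.47. The sign thus depended on the probe set in the low FASN line and between the lines, with no call in either probe set.

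**Figure D2:**
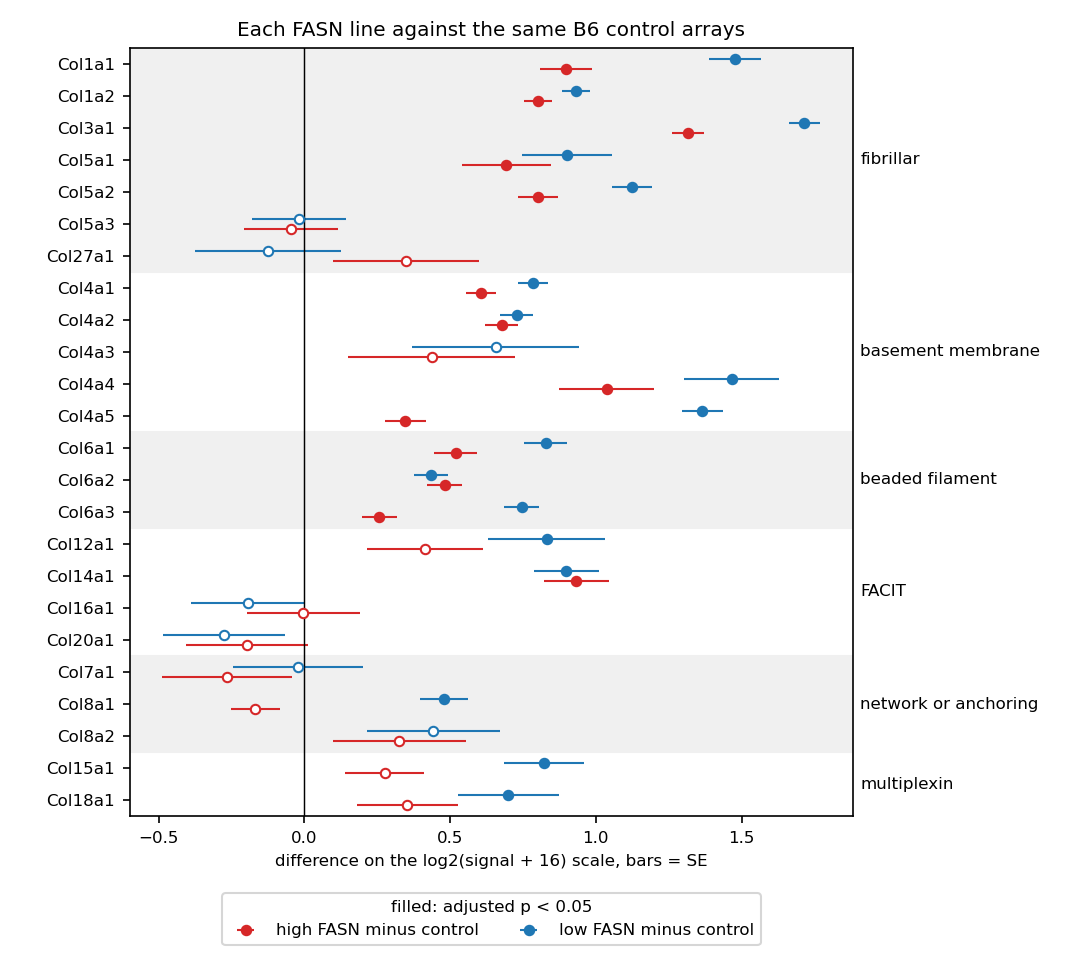
Each point is the difference of a FASN line from the B6 control arrays on the log2(signal + 16) scale for 1 collagen gene, with bars of 1 standard error, filled where the adjusted p was below 0.05. Col3a1 has the largest difference in each line, 1.32 in the high FASN line and 1.72 in the low FASN line, and Col8a1 lies on opposite sides of 0 at -0.17 and 0.48.

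In the basement membrane class the genes for the common chains of type IV collagen rose alike. Col4a1 and Col4a2 encode the chains that make up most basement membranes. Col4a1 had signals of 5755 and 5441 in the high FASN line, 6323 and 6342 in the low FASN line, and 3694 and 3645 in the controls. The groups were apart, with the lines much nearer to each other than to the controls. Col4a1 rose by 0.61 ± 0.051 in the high FASN line (adjusted p = 8.4e-05) and by 0.78 in the low FASN line (adjusted p = 1.26e-05). Col4a2 had signals of 2497 and 2531 in the high FASN line, 2638 and 2576 in the low FASN line, and 1531 and 1603 in the controls, so that the lines lay close together above the controls. It rose by 0.68 ± 0.057 in the high FASN line (adjusted p = 8.4e-05) and by 0.73 in the low FASN line (adjusted p = 3.47e-05).

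Both genes were also compared between the lines. Col4a2 differed by -0.05 between them, with a 95% interval from -0.18 to 0.075 (adjusted p = 0.575). Col4a1 differed by -0.18 (adjusted p = 0.0384), the smallest difference among the members called between the lines. This call was lost in 9 of the alternative settings, with adjusted p of 0.0831 without high FASN array 2, 0.181 and 0.194 without low FASN array 1 and 2, and 0.0668 without either control array. The dimmer Col4a1 probe set, with signals of 685 and 536 in the high FASN line and 836 and 1006 in the low FASN line, showed a larger difference of -0.59 (adjusted p = 0.0171).

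The chains encoded by Col4a3, Col4a4 and Col4a5 form a second type IV network, best known from the kidney's filter. Col4a5 had signals of 1402 and 1568 in the high FASN line, 3125 and 2923 in the low FASN line, and 1166 and 1159.9 in the controls. Its level in the low FASN line stood well apart from both other groups, while the high FASN line was only a little above the controls. Col4a5 rose by 1.37 in the low FASN line (adjusted p = 3.45e-06) and by 0.35 ± 0.071 in the high FASN line (adjusted p = 0.0113). The latter call was lost without control array 1 or 2 (adjusted p = 0.0629 and 0.0725) and with no intensity trend (0.104). The difference of -1.02 between the lines, a fold of 2.03 on this scale, had an adjusted p of 5.76e-05.

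Col4a4 had signals of 221 and 282 in the high FASN line, 345 and 339 in the low FASN line, and 101 and 127 in the controls, with no overlap. It rose by 1.04 ± 0.16 in the high FASN line (adjusted p = 0.00296) and by 1.47 in the low FASN line (adjusted p = 0.000249). Between the lines it differed by -0.43, which did not pass (adjusted p = 0.0976), and without high FASN array 2 it was -0.59 (adjusted p = 0.0492). Col4a3 had signals of 113 and 94.7 in the high FASN line, 169 and 88.5 in the low FASN line, and 59.1 and 87.3 in the controls. Its low FASN arrays were far apart, and differences of 0.44 and 0.66 from the controls did not pass (adjusted p = 0.354 and 0.129). Without low FASN array 2 the latter was 1.07 (adjusted p = 0.0439).

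All 3 tested chains of type VI collagen rose in both lines. Type VI filaments link the basement membrane of muscle cells to the fibres outside it. Col6a1 had signals of 916 and 924 in the high FASN line, 1109 and 1179 in the low FASN line, and 619 and 656 in the controls. The groups were apart, with the low FASN line highest and the controls lowest. It rose by 0.52 ± 0.074 in the high FASN line (adjusted p = 0.00178) and by 0.83 in the low FASN line (adjusted p = 7.55e-05). Col6a3 had signals of 1439 and 1422 in the high FASN line, 2011 and 2016 in the low FASN line, and 1222 and 1167 in the controls, so that the low FASN line stood furthest from the others. It rose by 0.26 ± 0.061 in the high FASN line (adjusted p = 0.0211) and by 0.75 in the low FASN line (adjusted p = 4.28e-05). The high FASN call of Col6a3 was the least firm of the 13. It was lost without high FASN array 1 (adjusted p = 0.0525), low FASN array 1 or 2 (0.0524 and 0.0527) and control array 1 or 2 (0.0623 and 0.137), and with median centring (0.0701), no intensity trend (0.125) and only the 4 arrays compared (0.0564).

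Col6a2 had the lines close together. Its signals were 1785 and 1766 in the high FASN line, 1703 and 1735 in the low FASN line, and 1247 and 1288 in the controls, so that the high FASN line was highest by a little. It rose by 0.48 ± 0.059 in the high FASN line (adjusted p = 0.000841) and by 0.43 in the low FASN line (adjusted p = 0.000808), with 0.05 between the lines (95% interval -0.087 to 0.18). Between the lines Col6a1 differed by -0.31 (adjusted p = 0.019) and Col6a3 by -0.49 (adjusted p = 0.000883). The Col6a1 call was lost without high FASN array 1 (adjusted p = 0.0517), low FASN array 1 (0.0694) or low FASN array 2 (0.148) and with no intensity trend (0.0861).

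Among the FACIT collagens Col14a1 rose in both lines and Col12a1 in the low FASN line. Both proteins sit on the surface of type I fibres. Col14a1 had signals of 816 and 1029 in the high FASN line, 926 and 865 in the low FASN line, and 495 and 451 in the controls. The lines overlapped each other above the controls. Col14a1 rose by 0.93 ± 0.11 in the high FASN line (adjusted p = 0.000704) and by 0.90 in the low FASN line (adjusted p = 0.000472), with 0.03 between the lines (95% interval -0.22 to 0.28). Col12a1 was dimmer, with signals of 114 and 109 in the high FASN line, 146 and 163 in the low FASN line, and 95.2 and 66.7 in the controls. The groups were apart, with the control arrays spread the most. Col12a1 differed by 0.41 from the controls in the high FASN line (adjusted p = 0.207) and rose by 0.83 in the low FASN line (adjusted p = 0.0144), a call that was lost without low FASN array 1 or 2 (adjusted p = 0.061 and 0.104) or control array 2 (0.0983). The FACIT genes Col16a1 and Col20a1 did not pass in either line, with differences between -0.28 and -0.003.

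Col8a1 differed between the lines, and against the controls only its rise in the low FASN line was called. Type VIII collagen forms short-chain networks in vessel walls. Col8a1 had signals of 829 and 717 in the high FASN line, 1219 and 1213 in the low FASN line, and 883 and 854 in the controls. Both high FASN arrays lay below both control arrays and both low FASN arrays above them. Col8a1 rose by 0.48 ± 0.083 in the low FASN line (adjusted p = 0.00294), while the -0.17 of the high FASN line did not pass (adjusted p = 0.217). The difference of -0.65 between the lines had an adjusted p of 0.00107. The partner chain gene Col8a2 was near the filter, with signals of 81.5 and 63.9 in the high FASN line, 72.5 and 87.5 in the low FASN line and 50.04 and 59.1 in the controls, and its differences of 0.33 and 0.44 did not pass. Col7a1, the collagen of anchoring fibrils in skin, lay between 49.0 and 71.7 on all arrays and did not pass.

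The multiplexins, collagens of the zone just outside basement membranes, were called in the low FASN line alone. Col15a1 had signals of 213 and 268 in the high FASN line, 351 and 363 in the low FASN line, and 197 and 193 in the controls. The low FASN line stood clear of the other groups, and the high FASN arrays were spread between. Col15a1 rose by 0.82 ± 0.14 in the low FASN line (adjusted p = 0.00233), with 0.28 in the high FASN line (adjusted p = 0.218) and -0.55 between the lines (adjusted p = 0.0226). The call between the lines was lost without high FASN array 1 (adjusted p = 0.0987), low FASN array 1 (0.105) or low FASN array 2 (0.133) and with no intensity trend (0.0634).

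Col18a1, whose protein releases the fragment endostatin, had signals of 162 and 163 in the high FASN line, 217 and 205 in the low FASN line, and 145 and 105 in the controls. The groups did not overlap, with the controls spread the most. It rose by 0.70 ± 0.17 in the low FASN line (adjusted p = 0.0162), a call that was lost without low FASN array 1 or 2 (adjusted p = 0.102 and 0.0741) or control array 2 (0.109). In the high FASN line the difference of 0.35 did not pass (adjusted p = 0.214). The difference itself between the lines did not pass for Col18a1 (-0.35, adjusted p = 0.199) or Col12a1 (-0.42, adjusted p = 0.182), so these 2 genes are not shown to differ between the lines.

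The 2 lines were also compared directly. Of the 24 tested members 9 were lower in the high FASN line than in the low FASN line and 0 were higher, against 8.87% and 9.69% of all tested probe sets. At an unadjusted limma p below 0.05 the counts were 11 lower and 0 higher (15.9% and 16.8% of all). The median difference of the 24 was -0.23 (-0.31 to -0.15 over the alternative settings), beside 0.0055 over all tested probe sets, and the class medians were -0.21 for fibrillar, -0.22 for basement membrane and -0.28 for other collagens. The 9 were the fibrillar genes Col1a1, Col3a1 and Col5a2, the type IV genes Col4a1 and Col4a5, the type VI genes Col6a1 and Col6a3, and Col8a1 and Col15a1. Without low FASN array 1 or 2 the count was 5, and with no intensity trend it was 4. Over all 42 members without the filter 8 were lower and 0 higher (3.08% and 3.36% of all), and 19 had both high FASN arrays below both low FASN arrays, with 7 above (23% and 24.4% of all probe sets).

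**Figure D3:**
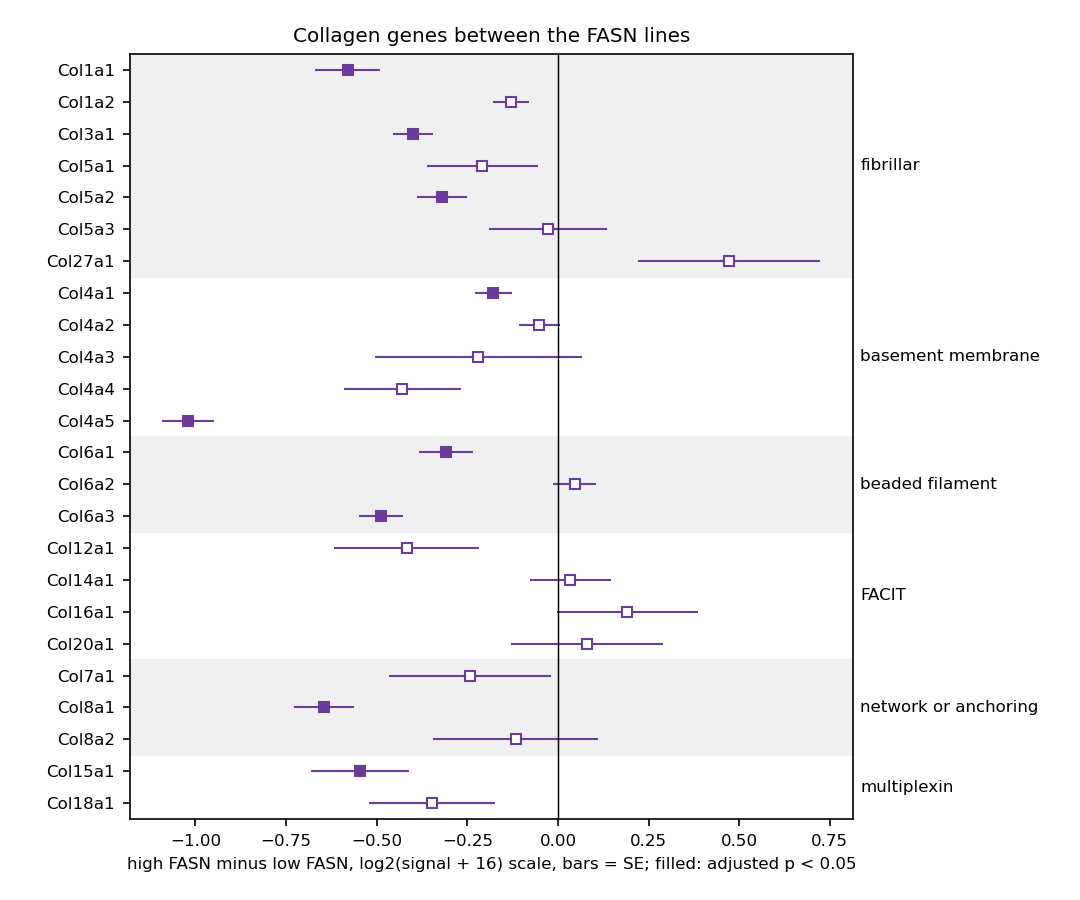
Each point is the difference of the high minus the low FASN line on the log2(signal + 16) scale for 1 collagen gene, with bars of 1 standard error, filled where the adjusted p was below 0.05. All filled points lie to the left of 0, from -0.18 for Col4a1 to -1.02 for Col4a5.

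The 18 members below the filter include the cartilage collagens of types II, IX, X and XI. They were Col2a1, Col11a1, Col11a2 and Col24a1 of the fibrillar class, Col4a6 of the basement membrane class, and Col6a4, Col6a5, Col9a1, Col9a2, Col9a3, Col10a1, Col13a1, Col17a1, Col19a1, Col22a1, Col23a1, Col25a1 and Col26a1. Their signals ran from 0.486 to 81.6, and without the filter 0 of them passed in any comparison. Just above the filter stood Col7a1 and Col8a2, with mean log2 values of 6.26 and 6.39, and just below it Col4a6 and Col23a1, with 5.91 and 5.80. Col4a6, a chain of smooth muscle basement membranes, had signals of 57.3 and 81.4 in the high FASN line, 39.2 and 81.6 in the low FASN line, and 13.1 and 27.0 in the controls. Both lines lay above the controls, and the arrays within each group differed widely. A second Col4a6 probe set, also below the filter, read 42.8 and 57.9, 52.8 and 63.2, and 16.4 and 19.7 in the same order. Its arrays lay closer together, again with both lines above the controls. The median of the members that passed the filter is therefore not that of the family.

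Several members had more than 1 probe set bright enough to test, which allows the same gene to be read at another place in its transcript. In 14 genes with at least 2 tested probe sets, the probe sets gave the same call in 10 for the high FASN line against the controls, in 9 for the low FASN line and in 11 between the lines. They had the same sign in 14, 13 and 11. The second probe sets of Col1a1 and Col4a4 are counted here, though they reached the filter only through the transgenic lines. Their control means were 30.5 and 29.6, below the filter's signal of 47.0. For Col3a1 the dimmer probe set read 1158 and 1190.1 in the high FASN line, 1608 and 1611 in the low FASN line and 329 and 309.6 in the controls, and gave 1.83 and 2.28 against 1.32 and 1.72 for the brighter one. Both probe sets of Col3a1 and of Col5a2 were called alike in all 3 comparisons. Both probe sets of Col4a5 rose in the low FASN line, by 1.37 and 1.57, and were lower in the high FASN line than in the low FASN line, by differences of -1.02 and -1.33.

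For other members the size or the call depended on the probe set. The second probe set of Col1a1 read 195 and 182 in the high FASN line, 178 and 176 in the low FASN line and 13.0 and 48.1 in the controls, and showed a difference of 0.08 between the lines (adjusted p = 0.895), where the brighter one showed -0.58. The second probe set of Col1a2 read 1605 and 1644, 2769 and 2790.1, and 747 and 691 in the same order, and was called between the lines at -0.77 (adjusted p = 0.000141). For type I collagen the difference between the lines thus rested on 1 probe set of each gene.

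Among the type IV genes the second probe set of Col4a3 read 70.5 and 65.9 in the high FASN line, 177 and 170.5 in the low FASN line and 52.7 and 23.9 in the controls. Unlike the brighter one it was called in the low FASN line at 1.86 (adjusted p = 0.00109) and between the lines at -1.17 (adjusted p = 0.0154). The second probe set of Col4a4 read 237 and 224 in the high FASN line, 322 and 344 in the low FASN line and 48.7 and 10.5 in the controls. It reached the filter only through the transgenic lines, and the size of its differences rests on dim control signals. This second probe set gave 2.57 and 3.08 over the controls, more than the 1.04 and 1.47 of the brighter one. That of Col4a1 gave 0.27 in the high FASN line (adjusted p = 0.236) and 0.85 in the low FASN line, and that of Col4a5 gave 0.24 in the high FASN line, not called. Second probe sets were not called where the brighter one was for Col14a1 in both lines (0.39 and 0.37), Col6a2 in both lines (0.06 and 0.17), and Col8a1 (0.34) and Col18a1 (0.32) in the low FASN line. That of Col8a1 was lower in the high FASN line than in the low FASN line as well, at -0.55.

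**Figure D4:**
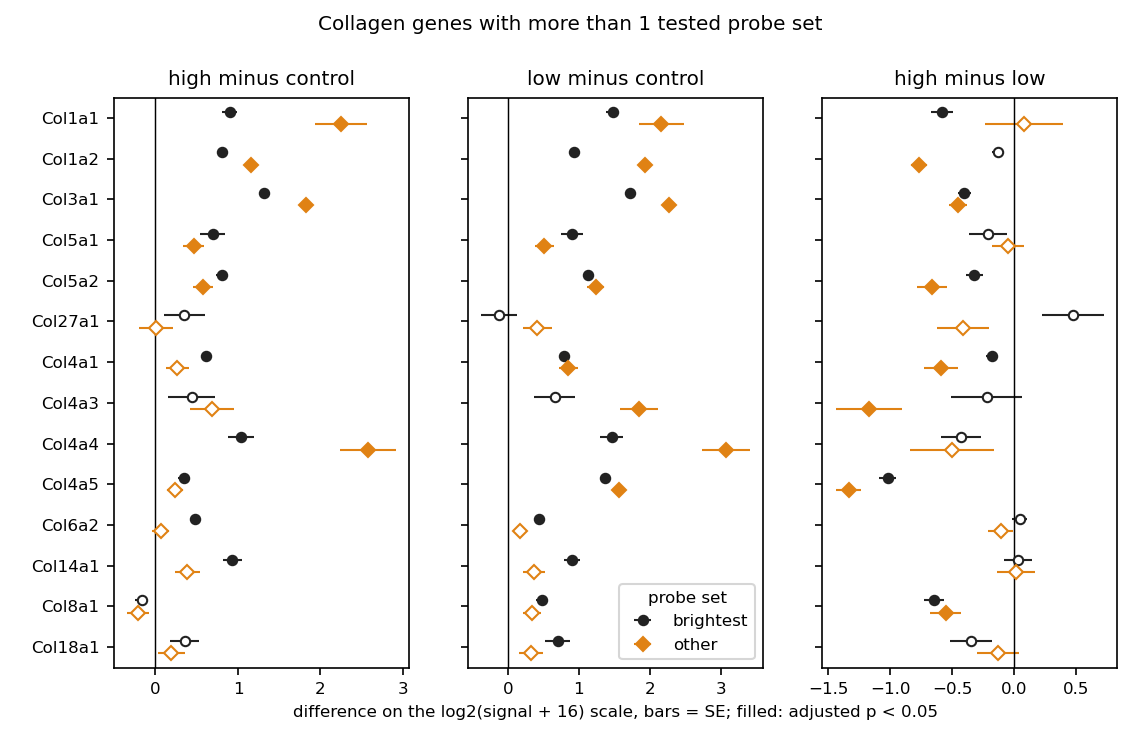
Each panel shows 1 comparison, with a point for each tested probe set of the genes that had at least 2, on the log2(signal + 16) scale with bars of 1 standard error, filled where the adjusted p was below 0.05. The probe sets of Col4a4 lie far apart at 1.04 and 2.57 in the high FASN line, and those of Col1a1 at -0.58 and 0.08 between the lines. The Col4a4 probe set at 2.57 had dim control signals of 48.7 and 10.5.

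Other genes that build and bind collagen were counted in the same way. Collagen chains are hydroxylated and folded in the endoplasmic reticulum, exported, trimmed of their propeptides and cross-linked outside the cell. Of 50 listed names 39 had a probe set and 33 were tested, with 5 higher and 3 lower in the high FASN line (8.18% and 6.18% of all tested probe sets), 10 higher and 1 lower in the low FASN line (13.5% and 10.8%), and 1 higher and 4 lower in the high FASN line than in the low FASN line (9.69% and 8.87%). In the high FASN line the number higher was 0 with no intensity trend and 3 or 2 when control array 1 or 2 was left out, and without control array 2 the number lower was 1. In the low FASN line the number lower was 2 with quantile normalization, cyclic loess or no filter, and 0 when any 1 of the low FASN or control arrays was left out. Between the lines the number lower was 2 with no filter and 1 with no intensity trend or without either low FASN array, and the number higher was 0 with no intensity trend, without high FASN array 1 or without either low FASN array. Median differences were 0.13, 0.13 and -0.11.

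Serpinh1, the collagen chaperone Hsp47, went opposite ways in the lines. Its signals were 3571 and 3586 in the high FASN line, 6084 and 6671 in the low FASN line, and 4539.9 and 4439 in the controls, with the high FASN line below and the low FASN line above the controls. Serpinh1 fell by 0.33 in the high FASN line (adjusted p = 0.00537, or 0.0977 with no intensity trend) and rose by 0.50 in the low FASN line (adjusted p = 0.000286), with -0.83 between the lines (adjusted p = 5.36e-05). Its second probe set gave -0.33, 0.61 and -0.93, all called (adjusted p = 0.00329, 5.75e-05 and 1.86e-05).

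The prolyl hydroxylase subunit genes P4ha1 and P4ha2, whose enzyme makes the hydroxyproline that holds the triple helix together, did not rise with the collagens. P4ha1 had signals of 337 and 319 in the high FASN line, 347 and 357 in the low FASN line, and 479 and 467 in the controls, with both lines below the controls. It fell by 0.51 in the high FASN line (adjusted p = 0.0086) and by 0.41 in the low FASN line (adjusted p = 0.0141). P4ha2 fell by 0.55 in the high FASN line (adjusted p = 0.0059), with -0.27 in the low FASN line (adjusted p = 0.0746). Under quantile normalization and cyclic loess the latter passed (adjusted p = 0.0499 and 0.0463). A second probe set of P4ha1 fell by 0.62 in the high FASN line (adjusted p = 0.0465) and was not called at -0.42 in the low FASN line (adjusted p = 0.122). P4hb, the shared partner subunit, rose by 0.27 in the low FASN line (adjusted p = 0.00502) and differed by -0.22 between the lines (adjusted p = 0.0183). In the hydroxylation group as a whole 1 of 13 tested genes rose and 2 fell in the high FASN line, and 2 rose and 1 fell in the low FASN line. Of all tested probe sets 8.18% rose and 6.18% fell in the high FASN line, and 13.5% and 10.8% in the low FASN line. The counts of this group are hard to tell from these shares. Crtap, part of the prolyl 3-hydroxylation complex, rose in both lines, by 0.33 and 0.40. P3h4 of the same group was higher in the high FASN line than in the low FASN line, by 0.43 (adjusted p = 0.0171).

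Apart from Serpinh1, the called genes for folding, export and cross-linking rose, as the called collagens did. Of 7 folding and export genes 2 rose and 1 fell in the high FASN line and 3 rose in the low FASN line. Beside the counts of these small groups, 8.18% of all tested probe sets rose and 6.18% fell in the high FASN line. In the low FASN line the shares were 13.5% and 10.8%. Counts in groups this small are hard to tell from such shares. Ppib, a prolyl isomerase of collagen folding, rose by 0.38 and 0.33, and Sec24d, a coat protein for procollagen export, by 0.34 and 0.44 in the high and low line. Pcolce2, an enhancer of propeptide removal, was the single called gene of 4 in its group and rose by 0.34 and 0.53. Of 3 tested lysyl oxidase genes, whose enzymes cross-link fibres, Loxl1 rose by 0.42 and 0.55, and Lox rose by 0.44 in the low FASN line (adjusted p = 0.023), with 0.10 in the high FASN line (adjusted p = 0.622). Of 6 tested collagen receptor and uptake genes 0 passed in the high FASN line. In the low FASN line Ddr2, a collagen receptor kinase of fibroblasts, rose by 0.78 (adjusted p = 0.00381) and Itgb1, the shared chain of collagen-binding integrins, by 0.41 (adjusted p = 0.00227). Both were lower in the high FASN line than in the low FASN line, by differences of -0.48 and -0.24 (adjusted p = 0.0454 and 0.0365).

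Some genes with small p in their group did not pass. Bmp1, which removes the C-terminal propeptide, differed by 0.47 in the high FASN line (adjusted p = 0.156) and 0.53 in the low FASN line (adjusted p = 0.0857). Adamts3, which removes the N-terminal propeptide, differed by 0.41 in the high FASN line (adjusted p = 0.138), and the propeptide removal enhancer Pcolce by -0.10 in the low FASN line (adjusted p = 0.381). The lysyl oxidase gene Loxl3 and the collagen uptake receptor gene Mrc2 differed by 0.35 and 0.24 in the low FASN line (adjusted p = 0.105 and 0.366), the collagen receptor gene Ddr1 by -0.24 in the high FASN line (adjusted p = 0.0617), and the export gene Sec23a by -0.09 between the lines (adjusted p = 0.402).

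Leaving out 1 array ended several calls of these genes. In the high FASN line this held for P4ha1 without control array 1 or 2 (adjusted p = 0.0623 and 0.054), for P4ha2, Ppib and Pcolce2 without control array 2 (0.0615, 0.0658 and 0.0549), for Sec24d without control array 1 (0.106), and for Crtap without high FASN array 1 or control array 1 or 2 (0.0538, 0.062 and 0.113). In the low FASN line it held for P4ha1 and Lox when any 1 of the low FASN or control arrays was left out (0.0636 to 0.0869 and 0.0872 to 0.124), for P4hb without low FASN array 2 (0.0599) and for Ppib without low FASN array 1 or control array 2 (0.0843 and 0.0787). Between the lines the calls of Ddr2, Itgb1, P4hb and P3h4 were each lost without low FASN array 1 or 2 (0.0777 to 0.272), those of Ddr2 and P3h4 also without high FASN array 1 (0.0991 and 0.0784), that of Ddr2 without high FASN array 2 (0.103) and that of Itgb1 without high FASN array 2 or either control array (0.111, 0.0547 and 0.0542). With no intensity trend, the calls of Crtap, Ppib, Sec24d, Pcolce2 and Loxl1 in the high FASN line (0.0585 to 0.0967), of P4hb and Ppib in the low FASN line (0.0745 and 0.0865) and of Ddr2, Itgb1, P4hb and P3h4 between the lines (0.0861 to 0.138) were lost. The calls between the lines were also lost without the filter for Ddr2 and Itgb1 (0.0996 and 0.067), with quantile normalization and cyclic loess for Ddr2 (0.0521 and 0.0551), and with median centring and only the 4 arrays compared for Itgb1 (0.0576 and 0.0526).

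**Figure D5:**
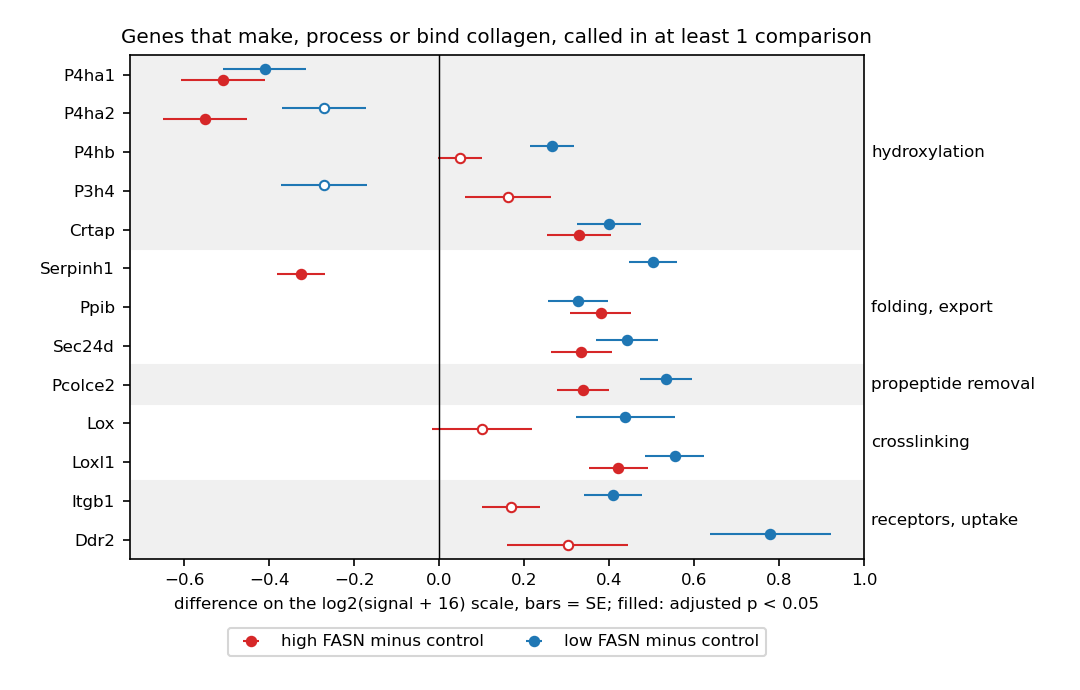
Each point is the difference of a FASN line from the B6 controls on the log2(signal + 16) scale for a gene that makes, processes or binds collagen and was called in at least 1 comparison, with bars of 1 standard error, filled where the adjusted p was below 0.05. Serpinh1 lies at -0.33 in the high FASN line and 0.50 in the low FASN line, and P4ha1 lies below 0 in both.

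Markers of heart cell types were counted in the same way. Among all tested probe sets 8.18% rose and 6.18% fell in the high FASN line. In the low FASN line 13.5% rose and 10.8% fell. Counts of 1 or 2 in lists this small are hard to tell from these shares. In bulk tissue a change in the number of cells of a type and a change in RNA per cell cannot be told apart. Of 12 fibroblast markers 5 rose in the high FASN line and 8 in the low FASN line, with 0 lower in each. Their summed signal was 63861 to 63888 in the high FASN line, 62706 to 63877 in the low FASN line and 56243 to 58083 in the controls. Gsn and Dcn, with means of 21923 and 18173 in the high FASN line, make up most of this sum. Between the lines 4 fibroblast markers were lower in the high FASN line and 2 were higher, with a median difference of -0.20. Of 7 tested smooth muscle markers 5 rose in the high FASN line, and 4 rose and 2 fell in the low FASN line, with sums of 18713 to 19636, 17747 to 17880 and 12811 to 13300. Of 6 pericyte markers 4 rose in the high FASN line and 3 in the low FASN line, with sums of 25319 to 26404, 24826 to 24984 and 21632 to 22323. Of 10 endothelial markers 3 rose and 1 fell in the high FASN line, and 4 rose and 2 fell in the low FASN line, with sums of 9919 to 10271, 10089 to 10292 and 9274 to 9469.5. Heart muscle markers rose in 8 of 10 in the high FASN line, and 1 rose and 1 fell in the low FASN line. Between the lines 7 heart muscle markers were higher in the high FASN line and 0 lower. Smooth muscle markers had 4 higher and 0 lower, pericyte markers 0 and 0, and endothelial markers 3 and 2. Among all tested probe sets 9.69% were higher and 8.87% lower.

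Markers of further cell types were counted too. Beside them, 8.18% of all tested probe sets rose and 6.18% fell in the high FASN line. In the low FASN line 13.5% rose and 10.8% fell. Of 7 mesothelial markers 3 rose in the high FASN line and 4 in the low FASN line, with sums of 1411 to 1463, 1568 to 1644 and 900.3 to 922 in the high FASN line, the low FASN line and the controls. Of 5 tested fat cell markers 4 rose in each line, with sums of 39732 to 43241, 32092 to 32875 and 21087 to 21528. Fabp4, called in neither line, makes up most of the control sum with a mean of 19945. Adipoq rose by 4.66 and 3.68 and Car3 by 3.67 and 3.10 in the high and low line, more than the sums show. Cidec and Retn had control means of 30.5 and 44.3 and reached the filter only through the transgenic lines. Of 6 tested airway and lung markers 4 rose in the high FASN line and 1 in the low FASN line, with sums of 3101 to 3301, 267 to 325 and 255 to 267. Bpifa1 and Scgb3a2 reached the filter only through the high FASN line, so the count there partly follows from the filter. Their means were 1180 and 513 in that line, 10.1 and 24.3 in the low FASN line, and 20.7 and 13.3 in the controls. Scgb1a1, the marker called in the low FASN line, had means of 126 there and 4.33 in the controls, a rise that the sums hide. Of 4 tested cartilage markers 1 rose in the high FASN line and 1 fell in the low FASN line, with sums of 844 to 1001, 706 to 775 and 779 to 852, and Acan, Matn1, Matn3 and Hapln1 were below the filter. Of 7 macrophage markers 2 fell in the high FASN line, and 3 rose and 1 fell in the low FASN line, with sums of 17881 to 17911, 21678 to 22211 and 19085 to 19198. The single tested red cell marker rose in the high FASN line, with sums over 3 genes of 133 to 200.1, 83.8 to 99.99 and 52.0 to 80.2. Between the lines that marker was not called. In the high FASN line 2 fat cell, 4 airway and lung and 2 cartilage markers were higher than in the low FASN line, and 0 were lower. Of the mesothelial markers 0 were higher and 1 lower, and of the macrophage markers 0 and 4, against 9.69% and 8.87% of all tested probe sets. Their part in the collagen differences was not tested.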

How the data were processed

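Total RNA of mouse hearts was measured on 6 Affymetrix arrays. The deposited values are linear intensity signals, 1 for each probe set on each array, and GCOS is named per the submitters' processing notes. The version, algorithm and scaling target of GCOS were not stated in the labels or headers. The table holds 45101 probe sets. After 64 control probe sets were set aside, 45037 remained, of which 34945 had 1 symbol in the platform annotation, 932 several and 9160 were not listed.

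The deposited scaling was kept. On the log2(signal + 16) scale, limma 3.58.1 in R 4.3.3 was used (lmFit, then eBayes with an intensity trend, two-sided), with 3 group means in 1 fit to all 6 arrays, 3 residual and 6.43 prior degrees of freedom. The pseudocount of 16 reduces noise in dim probe sets. Probe sets with a mean at or above the median (22519) were tested, and calls used a Benjamini-Hochberg adjusted p below 0.05. The fit was also run on simulated data, drawn with its own variances and with independent arrays. Such data cannot show how well the calls hold for these arrays. Signals give no counts, so the number of arrays limits the precision. Figures used matplotlib 3.10.9.

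Every member is named, in full where called in at least 1 comparison. Of the other genes of collagen synthesis, the 3 with the smallest p per comparison and group are named. Members, lists and tests were chosen with earlier results of these data known. Alternatives were other scalings (quantile normalization, median centring, cyclic loess), pseudocounts, filters and variance models, the mean over a gene's tested probe sets, the replicate number as a block, only the 4 arrays of a comparison, and each array left out. Promoter windows came from RefSeq (GRCm38.p6). The files name no genome build of their own.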

Additional observations from a re-analysis of the deposited data

Results flagged for a closer look

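The test of the high against the low line picked out 9 collagen genes, each lower in the high line, for which the difference of either line from the shared controls therefore differed between the lines. The differences on the log2 scale were -1.02 for Col4a5, -0.65 for Col8a1, -0.58 for Col1a1, -0.55 for Col15a1, -0.49 for Col6a3, -0.40 for Col3a1, -0.32 for Col5a2, -0.31 for Col6a1 and -0.18 for Col4a1. In 8 of the 9 both lines had a higher mean than the controls, and in Col8a1 the high line had a lower one. Serpinh1, the collagen chaperone gene, was on opposite sides of the controls in the 2 lines, at -0.33 and 0.50. The lines also differed in the 18S RNA signal, at 24919 to 27390 in the high line and 12019 to 12352 in the low line, and in the hybridization controls, by a median of 0.27. Their part in these differences was not tested.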

How the results depend on the processing

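Over the settings run on the chosen probe sets, 617 values of called members kept their call, 42 lost it and 0 reversed. With no intensity trend the number of probe sets called over the whole table was 1233 for the high line, 3576 for the low line and 1449 between the lines, and with 1 array left out it ran from 1398 to 3493, 2897 to 6476 and 1553 to 4158. Collagen genes higher than the controls ran from 10 to 13 for the high line and 15 to 17 for the low line with 1 array left out, and collagen genes lower in either line stayed at 0. Those lower in the high line than in the low line ran from 5 to 10, with 4 under no intensity trend, and 0 were higher. With the replicate number as a block the counts were 13, 17 and 9, so it changed no count of members. Same-numbered arrays deviated together at correlations of only 0.040, 0.027 and 0.0004. Low correlations cannot show whether same-numbered arrays were handled together, which the labels do not state. Uncalled members changed sign with 1 array left out: for the high line against the controls Col16a1 ran from -0.21 to 0.20 (0.11 without high FASN array 1). For the low line Col16a1 ran from -0.40 to 0.0087, Col27a1 from -0.46 to 0.22, Col5a3 from -0.045 to 0.0073 and Col7a1 from -0.12 to 0.073 (0.0028 without low FASN array 1). Between the lines Col14a1 ran from -0.13 to 0.20 (-0.015 without low FASN array 2), Col20a1 from -0.068 to 0.23, Col4a3 from -0.63 to 0.19, Col5a1 from -0.50 to 0.084 and Col8a2 from -0.26 to 0.027. Leaving out 1 array left 1 in its group, so each changed sign rested on that single array. No cause was tested. Dim genes near a signal of 47.0 could not be judged against background.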

Other observations

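Some collagen genes lie next to each other, with no other protein-coding gene of the RefSeq table between them. Values of such neighbours are given side by side, in the order high line, low line, for differences from the controls. Col3a1 showed 1.32 and 1.72 and its neighbour Col5a2 0.80 and 1.12. Col6a1 showed 0.52 and 0.83 and Col6a2 0.48 and 0.43. Col4a1 and Col4a2, which start 21 bases apart, showed 0.61 and 0.78, and 0.68 and 0.73. Col4a3 showed 0.44 and 0.66 (not called) and Col4a4 1.04 and 1.47. Col4a5 showed 0.35 and 1.37, and its neighbour Col4a6 was below the filter.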
